A study of Mus musculus with 288 samples.

Results

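The liver of mice exposed to intermittent hypoxia (IH) was compared with the liver of mice kept in normoxia in 47 of the 48 liver libraries of the study, among 288 libraries of all tissues. All mice were wild-type male C57BL/6J animals, 8 weeks old at the start. In the IH group the oxygen in the air cycled between 21% and 8% during the light, inactive phase for 7 days, while the normoxia group breathed room air. Both groups breathed room air in the dark phase and spent the last 2 days in constant normoxic darkness, so the tissue was taken when hypoxia had ended. Livers were collected on the second of these days at 8 time points 3 hours apart, from 3 mice per time point and treatment. All 24 normoxia libraries were used. Of the 24 IH libraries, 23 were used, because replicate 2 at 13:30 held mainly heart transcripts. Expression is given as TPM, a level corrected for transcript length and expressed as a share of all transcripts of a library. Of 35904 genes, 7198 had a mean of at least 5 TPM over the 47 libraries and were tested. The comparison addressed the mean 24-hour expression, that is, over all time points together, and whether a change was found in each of the 3 replicate numbers.

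Hepatocytes carry out the main metabolic and secretory work of the liver. They store and release glucose, make fatty acids, cholesterol and bile acids, turn ammonia into urea, and detoxify foreign compounds with cytochrome P450 and conjugating enzymes. They also secrete most proteins of the blood plasma, among them albumin, clotting factors, complement and apolipoproteins. In low oxygen, hypoxia-inducible factors escape degradation and raise genes of glycolysis, blood vessel growth and iron handling.

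The libraries differed in ways that the treatment labels alone did not account for, and in part these differences went with the replicate number. In replicates 1 and 2 the kidney tubule and heart muscle marker sums went with the treatment, and there the 2 cannot be told apart. The sum of 12 hepatocyte markers was between 49975 and 62862 TPM in the normoxia libraries of replicates 1 and 2. It was between 19363 and 50176 TPM after IH in the same replicates. In replicate 3 it ran from 55845 to 90195 TPM in normoxia and from 42416 to 67000 TPM after IH. The members of this sum did not move alike. Alb, the largest, had medians of 26997 and 30104 TPM in normoxia and 15010 and 17184 TPM after IH in replicates 1 and 2. Hnf4a had medians of 108 and 129 TPM in normoxia and 103 and 128 TPM after IH. Several members, Alb and Apob among them, are also described below as results. In bulk tissue, fewer cells of a type and less RNA per cell cannot be told apart. Markers of the kidney tubule, which no liver cell should express at a high level, summed to between 1.30 and 9.50 TPM in normoxia replicates 1 and 2. They summed to between 43.0 and 132 TPM in every IH library used. Normoxia replicate 3 was split, with 3 libraries between 1.28 and 12.8 TPM and 5 between 111 and 124 TPM. Kap and Fxyd2 were placed on this list of 12 with their rise in these livers already known. The other 10 markers summed to between 0.526 and 1.15 TPM in normoxia replicates 1 and 2, and to between 6.17 and 11.4 TPM after IH. In the kidney of normoxic mice the 12 markers summed to a mean of 55849 TPM. The heart muscle markers ran from 17.7 to 35.9 TPM in normoxia replicates 1 and 2, from 7.00 to 106 TPM in normoxia replicate 3, and from 45.9 to 90.1 TPM after IH. The erythroid markers ran from 1842 to 3951 TPM in normoxia and from 1260 to 11993 TPM after IH. The 4 libraries whose log2 values correlated least with the median library, with a coefficient below 0.95, were all IH libraries, 3 of them of replicate 1. They are IH replicate 1 at 1:30, 13:30 and 16:30 and IH replicate 2 at 7:30.

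**Figure D1:**
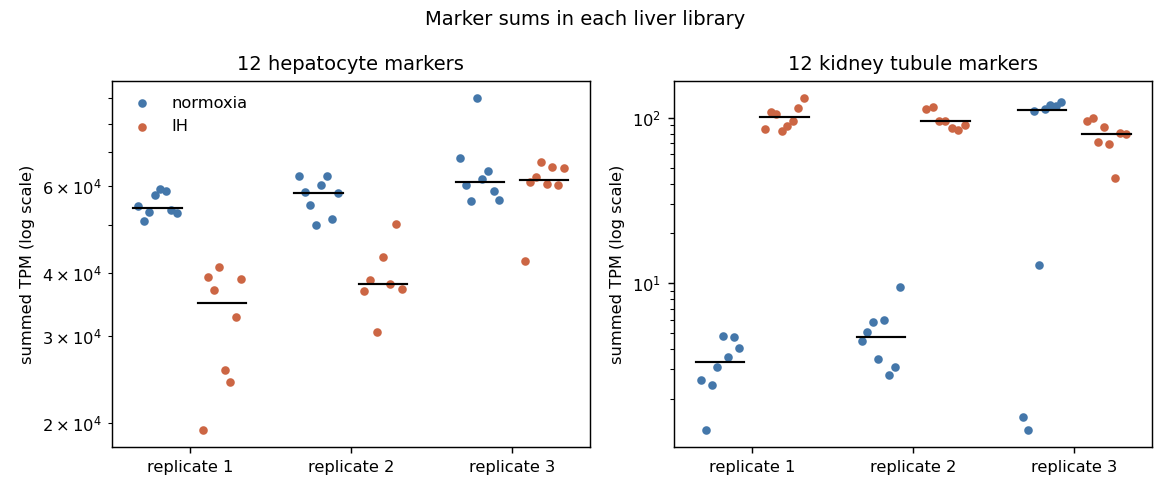
Summed TPM of 12 hepatocyte markers (left) and 12 kidney tubule markers (right) in each liver library, on log axes, by replicate number and treatment, with 1 point per library in order of time point and a black line at the median. The kidney tubule sum was below 10 TPM in normoxia replicates 1 and 2, split in normoxia replicate 3, and above 40 TPM in all IH libraries.

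Over all libraries, 259 of the 7198 genes (3.6%) differed between IH and normoxia at an adjusted p of 0.05 or less and by at least 1.5-fold, by limma with Benjamini-Hochberg adjustment. Of these, 188 (2.61% of genes tested) were lower after IH and 71 (0.986%) were higher. The 10 largest falls included Fasn (fatty acid synthase), Apob (the structural protein of very-low-density lipoprotein), Pzp (a plasma protease inhibitor), Anpep (aminopeptidase N), Abcc3 (a basolateral exporter of bile acid and glucuronide conjugates) and Gsta1 (a glutathione S-transferase). The others were Gm10925, Rps7-ps3, Rps13-ps2 and Gm7329, which are pseudogenes whose reads can be shared with near-identical genes. The 10 largest rises were Kap, Fxyd2, Gpx3, Myl2, Mt2 and the pseudogenes Gm10705, Gm8325, Gm13502, Ptges3-ps and Gm7887. Without the 4 libraries of low correlation, 194 genes were called, 133 of them among the 259.

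The change was not the same in the 3 replicate numbers. Within replicate 1, 1123 genes (15.6%) were called, 726 lower (10.1%) and 397 higher (5.52%). Within replicate 2, 906 genes (12.6%) were called, 582 lower (8.09%) and 324 higher (4.5%). Both held 691 genes in common, which is 61.5% of the replicate 1 calls and 76.3% of the replicate 2 calls, and all 691 had the same sign. Within replicate 3, 1 gene (0.0139%) was called, Gsta1, while 656 genes reached 0.05 before adjustment. Across genes, the log2 changes of replicates 1 and 2 had a Pearson r of 0.904, against -0.098 for replicates 1 and 3 and -0.086 for replicates 2 and 3, where genes are not independent replicates. The difference between replicate numbers was itself tested with an interaction term, and it passed an adjusted p of 0.05 in 1909 genes (26.5%) by limma. Of the 259 genes called over all libraries, 205 differed in this way and 122 (47.1%) had the same sign in all 3 replicate numbers. Of all genes tested, 34.5% had the same sign, but the 2 shares are not alike. The calls were made on these same libraries, and replicates 1 and 2 changed together, so a call makes a shared sign in those 2 likely beforehand. The 188 falls had a median log2 change of -1.12 in replicate 1, -1.03 in replicate 2 and 0.04 in replicate 3, and 77 of them were below 0 in replicate 3. The 71 rises had medians of 1.09, 1.02 and 0.05, and 45 of them were above 0 in replicate 3. Of all 7198 genes tested, 4375 were above 0 in replicate 3 and 2823 below. The falls were thus below 0, and the rises above 0, in replicate 3 about as often as all genes tested. The 3 smallest p-values of the interaction belonged to Anpep, Pzp and Fn1 (fibronectin). Pzp ranged from 991 to 1453 TPM in normoxia replicates 1 and 2 and from 138 to 352 TPM after IH, and the groups did not overlap. In replicate 3 it ranged from 844 to 1447 TPM in normoxia and from 768 to 1085 TPM after IH, and the groups overlapped. Fn1 had medians of 178 and 184 TPM in normoxia and 48.3 and 44.0 TPM after IH in replicates 1 and 2, against 152 and 183 TPM in replicate 3. The time of collection was tested in the same way, and 0 genes passed an adjusted p of 0.05 by limma. Before adjustment 15 genes were at 0.05 or less, a far smaller share than 0.05 of the 7198 genes tested. The fit held no term for replicate number, so differences between replicate numbers counted as spread. The 0 therefore does not show that the change was alike at all time points. The 3 smallest p-values of that test belonged to Cryl1, Lpl and Magix, at 0.0017, 0.0039 and 0.011 before adjustment.

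**Figure D2:**
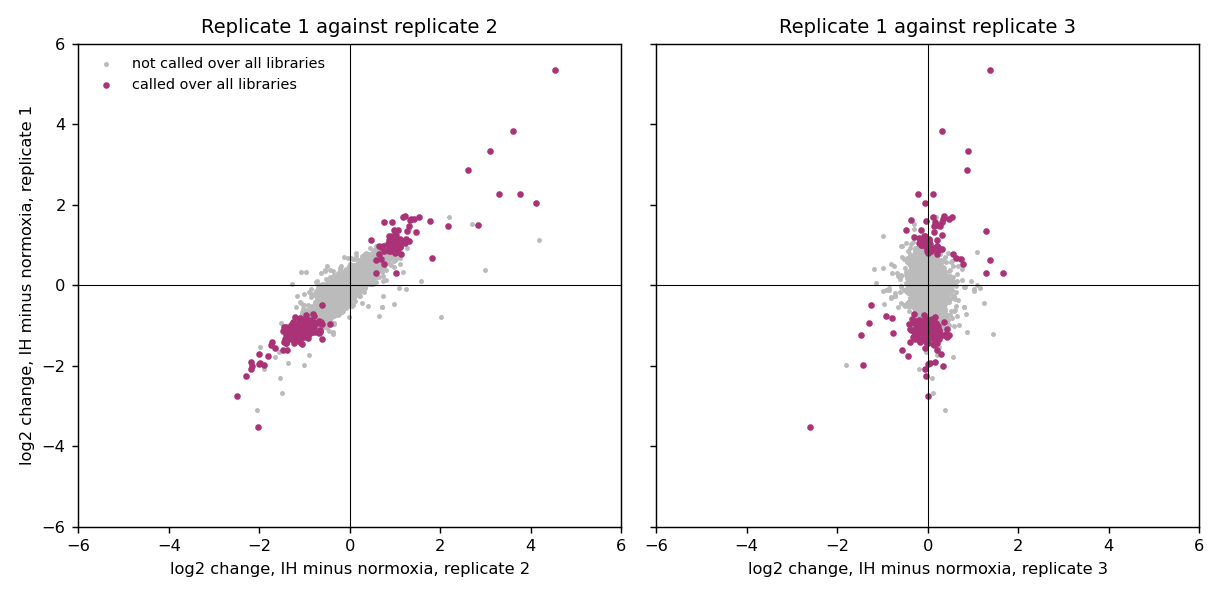
Log2 change (IH minus normoxia) of 7198 genes in replicate 1 (vertical axis) against replicate 2 (left) and replicate 3 (right), with the 259 genes called over all libraries in purple. The points follow the diagonal for replicates 1 and 2 (r of 0.904) and not for replicates 1 and 3 (r of -0.098).

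Gsta1 fell in all 3 replicate numbers and was the 1 gene called in each of them. It encodes an alpha class glutathione S-transferase, an enzyme that joins glutathione to reactive compounds such as lipid peroxidation products. Gsta1 was at 30.5 ± 10.8 TPM in normoxia (SD, n = 24) and at 11.02 ± 3.58 TPM after IH (SD, n = 23). In replicate 1, normoxia ran from 10.0 to 44.1 TPM with a median of 24.6, and IH from 3.90 to 13.5 TPM with a median of 9.80. In replicate 2, normoxia ran from 19.5 to 39.0 TPM with a median of 26.4, and IH from 6.91 to 15.1 TPM with a median of 10.9. In replicate 3, normoxia ran from 16.5 to 50.3 TPM with a median of 40.1, and IH from 7.20 to 19.3 TPM with a median of 12.6. The groups did not overlap in replicate 2 and overlapped in replicates 1 and 3. The log2 change was -1.31 ± 0.15 (SE) over all libraries, with an adjusted p of 2.9e-08 by limma, and -1.23, -1.24 and -1.47 within replicates 1, 2 and 3. The adjusted p within replicate 3 was 0.012 by limma, and the interaction with replicate number had an adjusted p of 0.86. The IH mean was lower at 8 of 8 time points, and IH was lower in 23 of 23 pairs of libraries of the same time point and replicate number. Gsta1 was singled out by its values in these same libraries, so these counts describe its fall and do not test it further. The replicate numbers were not taken to pair the libraries.

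Gsta1 lies on chromosome 9 at 78230656-78242684 (GRCm38, plus strand), and Gm3776, annotated as a predicted gene, lies next to it at 78257129-78269166 on the same strand. The sequence that ends just before each annotated start is shown because these neighbouring genes, which fell together, are near copies also outside the transcribed part. Of 237 bases shared by both upstream windows when aligned without a gap, 1 differed, an identity of 99.6%, and the capital marks the base that differs (RefSeq sequence, GRCm38.p6, chr9:78230419-78230655 and chr9:78256892-78257128, plus strand).
Gsta1: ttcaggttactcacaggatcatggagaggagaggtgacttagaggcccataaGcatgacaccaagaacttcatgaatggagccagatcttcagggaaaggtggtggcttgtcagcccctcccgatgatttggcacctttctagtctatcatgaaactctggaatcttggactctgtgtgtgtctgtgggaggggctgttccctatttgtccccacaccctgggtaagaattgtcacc
Gm3776: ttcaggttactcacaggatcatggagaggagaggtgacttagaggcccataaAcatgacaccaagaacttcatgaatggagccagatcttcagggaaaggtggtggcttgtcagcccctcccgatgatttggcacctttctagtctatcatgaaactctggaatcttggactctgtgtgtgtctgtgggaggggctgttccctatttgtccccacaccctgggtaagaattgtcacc
The letters TGACNNNGC, the core of the antioxidant response element, were in neither 250-base upstream window on either strand, and 10.2% of 32851 RefSeq promoter windows held them. The letters ACGTG, the core of the hypoxia response element, were in neither window, and 16.6% of all windows held them. Bases farther upstream were not searched, so these absences say nothing about them. Gm3776 was at 21.2 ± 9.68 TPM in normoxia and 8.74 ± 2.88 TPM after IH (SD, n = 24 and 23). Its log2 change was -1.07 ± 0.16 over all libraries and -0.94, -0.96 and -1.30 within the replicate numbers. How reads were shared between Gsta1 and Gm3776 is uncertain. Their sum was at 51.7 ± 20.1 TPM in normoxia and 19.8 ± 6.29 TPM after IH (SD, n = 24 and 23). Gsta2, a more distant member of the family on the same chromosome, was named after its values were seen. It was not called and was at 117 ± 26.3 TPM in normoxia and 101 ± 42.0 TPM after IH, with log2 changes of -0.45, -0.31 and 0.10 in the replicate numbers.

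Further genes fell in all 3 replicate numbers. Pltp, the phospholipid transfer protein that remodels high-density lipoprotein in plasma, was at 32.8 ± 13.3 TPM in normoxia and 15.4 ± 7.01 TPM after IH (SD, n = 24 and 23). Its log2 change was -0.99 ± 0.14 (SE, adjusted p of 7.5e-07 by limma), and -1.19, -1.03 and -0.76 in the replicate numbers. The groups did not overlap in replicates 1 and 2, where IH ran from 5.66 to 20.1 TPM, and overlapped in replicate 3, where normoxia ran from 20.1 to 62.6 TPM and IH from 11.9 to 34.9 TPM. Csad, cysteine sulfinic acid decarboxylase of taurine synthesis, was named after its values were seen. It was at 253 ± 76.4 TPM in normoxia and 139 ± 54.3 TPM after IH, and its log2 changes of -0.77, -0.79 and -0.91 lay closer together than those of Pltp. Its groups overlapped in each replicate number. Gsta1, Gm3776, Pltp, Csad, Clstn3 and Ephx1 (described with the conjugation enzymes) stayed called without any 1 replicate number and without the 4 libraries of low correlation. Apob, Anpep, Abcc3 and C4b also stayed called in each of these fits. Their log2 changes in replicate 3 were 0.17, 0.01, 0.05 and 0.14. Staying called thus does not mark a gene whose change was alike in the 3 replicate numbers. Clstn3 (calsyntenin 3) had log2 changes of -0.80, -1.11 and -0.79 and was at 14.8 ± 7.19 TPM in normoxia and 6.99 ± 2.94 TPM after IH. Within replicate 3 alone, Pltp, Csad and Clstn3 did not pass, with adjusted p-values of 0.40, 0.18 and 0.51 by limma. The IH mean was lower at 8 of 8 time points for Gm3776, Pltp, Csad and Clstn3, and IH was lower in 22, 21, 20 and 21 of 23 same-time pairs. These genes were singled out by their values in the same libraries, so these counts and the calls that stayed are descriptions. The pseudogenes Gm10925 and Rps7-ps3 fell in all 3 replicate numbers too, with log2 changes of -3.53, -2.04 and -2.61 for the first.

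Of the rises that were seen in all 3 replicate numbers, Nnmt, Sult1d1 and Mt2 were not among the kidney and heart markers. Nnmt, nicotinamide N-methyltransferase, was at 119 ± 49.9 TPM in normoxia and 184 ± 78.2 TPM after IH (SD, n = 24 and 23). Its log2 change was 0.69 ± 0.18 (SE, adjusted p of 0.0033 by limma), and 0.67, 0.70 and 0.73 in the replicate numbers. The IH mean was higher at 8 of 8 time points, although the groups overlapped in each replicate number. Its call was lost without replicate 1 (adjusted p of 0.053 by limma), without replicate 2 (0.11), and without the 4 libraries of low correlation, where the log2 change was 0.53. Sult1d1, a sulfotransferase named after its values were seen, was at 60.7 ± 17.1 TPM in normoxia and 99.6 ± 46.0 TPM after IH, with log2 changes of 0.54, 0.76 and 0.77, and its call was lost without replicate 2 (adjusted p of 0.062 by limma). Mt2, a metal-binding metallothionein, varied most, from 3.10 to 362 TPM in normoxia and from 3.83 to 175 TPM after IH. Its log2 changes were 1.35, 1.26 and 1.29, and its adjusted p of 0.023 by limma was lost without replicate 1, without replicate 2, and without any of the time points 10:30, 13:30 or 19:30. By limma within replicate 3 alone, Nnmt, Sult1d1 and Mt2 had adjusted p-values of 0.49, 0.27 and 0.72.

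**Figure D3:**
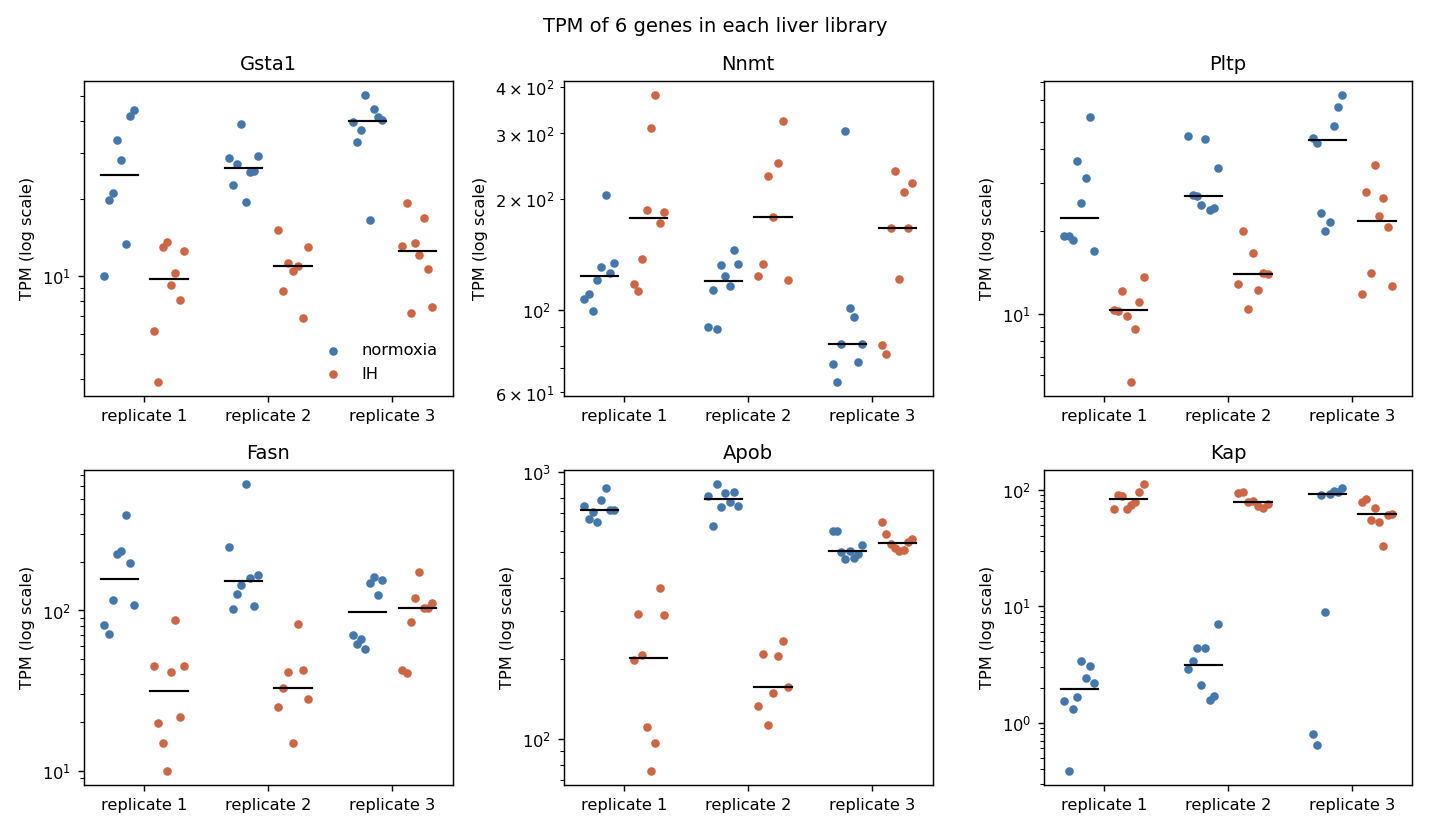
TPM of 6 genes in each liver library, on log axes, by replicate number and treatment, with 1 point per library in order of time point and a black line at the median. Gsta1 and Pltp were lower and Nnmt was higher after IH in all 3 replicate numbers by the median, Fasn and Apob were lower in replicates 1 and 2, and Kap followed the split of the kidney tubule markers.

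Metabolic functions were described with lists of genes. Among 21 genes of lipogenesis and triglyceride synthesis, 7 fell and 0 rose, against 2.61% of all genes that fell. The 7 were Fasn, Acly (ATP citrate lyase), Acss2 (acetyl-CoA synthetase), Acacb (an acetyl-CoA carboxylase), Me1 (malic enzyme, a source of NADPH), Scd1 (stearoyl-CoA desaturase) and Elovl5 (a fatty acid elongase). The median log2 change of the list was -0.78 in replicate 1, -0.70 in replicate 2 and -0.01 in replicate 3, against -0.03, -0.005 and 0.03 over all genes. Fasn had medians of 157 and 153 TPM in normoxia and 31.6 and 32.8 TPM after IH in replicates 1 and 2, and the groups did not overlap in replicate 2. In replicate 3 its medians were 97.2 and 104 TPM, and the ranges overlapped from 57.6 to 161 TPM. Its log2 changes were -2.26, -2.30 and -0.04, and the interaction with replicate number passed (adjusted p of 0.0019 by limma). The call of Fasn was lost without replicate 2 (adjusted p of 0.055 by limma). In replicate 3, 10 genes of the list were above 0 and 11 below, and 0 passed. Of all genes tested, 4375 were above 0 there and 2823 below.

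Cholesterol synthesis and uptake was the metabolic list whose median was most alike between replicates 2 and 3. Of 25 genes, 7 fell and 0 rose, against 2.61% and 0.986% of all genes. Among the falls were Sqle, Lss, Cyp51 and Dhcr7, enzymes of the sterol branch of the pathway. The median log2 change was -0.57, -0.24 and -0.22 in the 3 replicate numbers. In replicate 3, 20 of the 25 genes were below 0 and none passed the test. Of all 7198 genes tested, 2823 were below 0 in replicate 3. The interaction with replicate number passed in 3 of the 25, against 26.5% of all genes. Sqle, squalene epoxidase, was at 19.99 ± 9.63 TPM in normoxia and 11.7 ± 6.75 TPM after IH (SD, n = 24 and 23), with log2 changes of -1.17, -0.66 and -0.30. Its call was lost without the 4 libraries of low correlation (-0.58), without replicate 1, without replicate 2 and without 7:30.

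Among 13 genes of gluconeogenesis and glycogen, 1 fell, against 2.61% of all genes. This was Gys2 (liver glycogen synthase), with log2 changes of -0.94, -0.94 and -0.22. Pck1 and G6pc, the enzymes that begin and end gluconeogenesis, did not pass, with log2 changes of -0.43 ± 0.24 and -0.29 ± 0.20 (SE). Of 16 genes of glycolysis and fructose use, 3 fell: Gpi1 (glucose phosphate isomerase), Slc2a2 (the glucose transporter GLUT2) and Tkfc (which acts in fructose use). Of 32 genes of fatty acid oxidation and ketogenesis, 4 fell, among them Ehhadh and Acaa1b of the peroxisome and the fatty acid hydroxylase Cyp4a10. Cpt1a, which admits fatty acids to mitochondria, had a log2 change of -0.46 ± 0.17 (SE, adjusted p of 0.033 by limma) and stayed under 1.5-fold. Both lists of glucose genes and the oxidation list had medians between -0.59 and -0.34 in replicates 1 and 2 and between 0.00 and 0.15 in replicate 3.

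Of 26 genes of bile acid synthesis and transport, 3 fell: Cyp8b1 (the sterol 12-hydroxylase), Abcb11 (the bile salt export pump) and Abcc3. Cyp7a1, the rate-limiting enzyme of bile acid synthesis, was at 29.2 ± 16.9 TPM in normoxia and 28.7 ± 27.7 TPM after IH and did not pass. Of 36 genes of the urea cycle and amino acid metabolism, 1 (2.78%) fell, close to the 2.61% of all genes. This was Cps1, the entry enzyme of the urea cycle, whose call was lost without the 4 libraries of low correlation (log2 change of -0.36, adjusted p of 0.16 by limma) and without replicate 1, replicate 2, 1:30 or 16:30. Cps1 medians were 423 and 525 TPM in normoxia and 195 and 231 TPM after IH in replicates 1 and 2, without overlap of the groups, and 737 and 1034 TPM in replicate 3. Its log2 changes were thus -1.22, -1.20 and 0.48, with an adjusted p of 3.7e-08 for the interaction by limma. All 36 genes of that list had a log2 change above 0 in replicate 3, with a median of 0.28. The median was -0.37 and -0.25 in replicates 1 and 2. Of all 7198 genes tested, 4375 were above 0 in replicate 3.

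Among 41 cytochrome P450 genes of families 1 to 4, 6 fell over all libraries, against 2.61% of all genes. Those 6 were Cyp1a2, Cyp2c23, Cyp2f2, Cyp4a10, Cyp4a12a and Cyp4a12b. The list's median was -0.71, -0.56 and 0.27 in the 3 replicate numbers. The interaction passed in 26 of the 41, against 26.5% of all genes. Cyp4a12a, a male-biased fatty acid hydroxylase, was at 180 ± 37.4 TPM in normoxia and 86.2 ± 54.7 TPM after IH (SD, n = 24 and 23), with log2 changes of -1.60, -1.39 and -0.56. Cyp2e1 and Cyp3a11, abundant drug-metabolizing forms, stayed under 1.5-fold. Of 44 conjugation enzymes, 4 fell (Gsta1, Gstm1, Ugt1a6b and Ephx1, the microsomal epoxide hydrolase) and 3 rose (Nnmt, Sult1d1 and Sult2a8). Of all genes, 2.61% fell and 0.986% rose. Without the 4 libraries of low correlation 1 conjugation enzyme was called higher, beside 73 of all genes tested. Ephx1 was at 337 ± 47.8 TPM in normoxia and 192 ± 73.1 TPM after IH, with log2 changes of -1.10, -0.98 and -0.36, and its IH mean was lower at 8 of 8 time points. Its change differed between replicate numbers (adjusted p of 0.0089 by limma). In replicate 3 its values ran from 297 to 435 TPM in normoxia and from 213 to 354 TPM after IH.

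**Figure D4:**
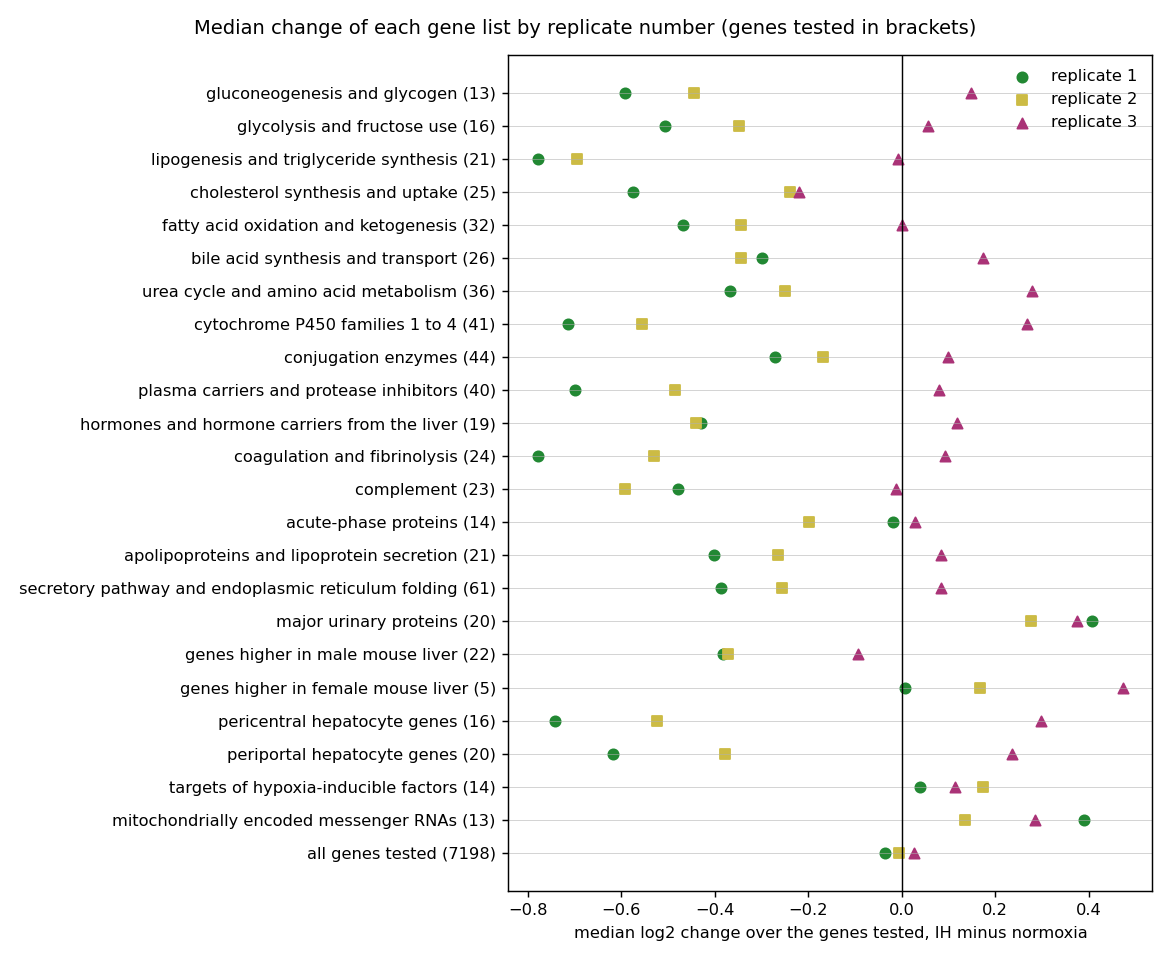
Median log2 change (IH minus normoxia) of each gene list within replicate 1 (circles), replicate 2 (squares) and replicate 3 (triangles), with the number of genes tested in brackets. Nearly all metabolic and secretory lists lay below 0 in replicates 1 and 2 and near or above 0 in replicate 3, where the cholesterol list was at -0.22. The major urinary proteins, female-biased genes, targets of hypoxia-inducible factors and mitochondrially encoded RNAs lay above 0 in all 3.

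Secretory functions were described in the same way. Of 40 plasma carriers and protease inhibitors, 10 fell and 1 rose by at least 1.5-fold, against 2.61% and 0.986% of all genes. The interaction with replicate number passed in 28 of the 40, against 26.5% of all genes. The falls included Pzp, Itih4 and Mug2 (protease inhibitor or matrix-binding proteins of plasma), Trf (transferrin) and Cp (ceruloplasmin, the copper carrier). The rise was that of Selenop, the selenium carrier, at 0.64 over all libraries and -0.10 in replicate 3. It was not called without the 4 libraries of low correlation, on TPM as deposited, or with the change by length and GC content removed. Alb (albumin), the most abundant plasma protein, was at 31277 ± 7132 TPM in normoxia and 21964 ± 10647 TPM after IH (SD, n = 24 and 23). Its log2 changes were -0.99, -0.71 and -0.01, and over all libraries the value of -0.56 ± 0.13 (SE) was under 1.5-fold. It passed 1.5-fold on TPM as deposited (-0.65), with upper quartile scaling (-0.59), with length and GC content corrected (-0.60), and without replicate 3 (-0.86) or any of 10:30, 19:30 and 22:30. Ttr, the carrier of thyroid hormone, did not pass, with a log2 change of -0.20 ± 0.09.

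Of 21 genes of apolipoproteins and lipoprotein secretion, 5 fell, against 2.61% of all genes. The 5 were Apob, Mttp (which loads lipid onto the Apob protein), Pltp, Abca1 (a cholesterol exporter) and Lrp1 (an endocytic receptor). Apob had medians of 721 and 791 TPM in normoxia and 202 and 156 TPM after IH in replicates 1 and 2, without overlap, and of 504 and 540 TPM in replicate 3. Its log2 changes were -1.89, -2.18 and 0.17, with an adjusted p of 5.7e-13 for the interaction by limma. Apoa1, the main protein of high-density lipoprotein, did not pass, at -0.18 ± 0.09.

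Of 23 complement genes, 7 fell and 0 rose, against 2.61% and 0.986% of all genes. C3 (the central component), C4b and Cfb (both part of the C3 convertases) were among the falls. C3 had log2 changes of -1.62, -1.47 and 0.20. Of 24 coagulation genes, 3 fell, namely F5 (factor V), Klkb1 (prekallikrein) and Ggcx (which carboxylates vitamin K-dependent factors). Fgb, the beta chain of fibrinogen, stayed under 1.5-fold at -0.42 ± 0.10. Of 19 liver hormones and hormone carriers, 3 fell, namely Igfals (which stabilizes circulating IGF1), Agt (angiotensinogen) and Inhbc (an inhibin subunit). Igf1 and Hamp (hepcidin, the regulator of iron uptake) did not pass. Hamp was at 2937 ± 1206 TPM in normoxia and 3792 ± 1497 TPM after IH (SD, n = 24 and 23). Of 14 acute-phase genes, 0 were called by limma and 4 had a p of at most 0.05 before adjustment. That p was also reached by 3164 of all 7198 genes tested. Saa1, the acute-phase serum amyloid, had a log2 change of 0.06 ± 0.33 (SE). Of 61 genes of the secretory pathway and endoplasmic reticulum folding, 3 (4.92%) fell, against 2.61% of all genes, namely Sec63 of protein import and Sec31a and Sec24d of the coat of transport vesicles. The interaction with replicate number passed in 29 of the 61, against 26.5% of all genes.

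The list counts rest in part on the 4 libraries of low correlation. Over all 7198 genes tested, 121 fell when these libraries were left out. Without them the number of falls was 4 for lipogenesis, 2 for cholesterol, 0 for fatty acid oxidation, 5 for plasma carriers and 4 for complement. It was 3 for apolipoproteins, P450 genes and conjugation enzymes and 2 for glycolysis, bile acids, male-biased genes and the secretory pathway. It was 1 for gluconeogenesis and for acute-phase genes, and 0 for coagulation, hormones, the urea cycle, pericentral genes and periportal genes. The list medians and the sums of hepatocyte, kidney tubule and heart markers both differed between replicates 1 and 2 on the one hand and replicate 3 on the other. The part of the hepatocyte and heart markers in the list changes was not tested. For the kidney tubule sum, list medians with a further term are given below. When the kidney tubule sum was added to the model as a further term, a choice made after seeing the data, 9 genes passed the test and the fold limit. They were Gsta1, Gm3776, Ephx1, Pltp, Pgd (6-phosphogluconate dehydrogenase, a source of NADPH), Mvp, Ermp1, 9030619P08Rik and Gm4956. The first 7 fell and the last 2 rose. With that term, list medians over all libraries went from -0.457 to -0.703 for lipogenesis and from -0.357 to -0.394 for cholesterol. They went from -0.349 to -0.143 for P450 genes, from -0.352 to -0.162 for plasma carriers and from -0.126 to -0.0099 for the urea cycle. Csad and Clstn3 did not pass in that model, each with an adjusted p of 0.051, at log2 changes of -0.79 and -1.004 against -0.83 and -0.90 without the term. That term is itself nearly the treatment in replicates 1 and 2, so the model leaves little of the difference there to test. Of 59 named genes that lost the call, 56 had a larger SE, 32 were still changed by at least 1.5-fold and 13 had a log2 change at least as large as without the term.

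Other lists showed other patterns. The major urinary proteins, pheromone carriers made in male liver, form a family of near-identical genes, so how reads were divided among them is uncertain. Of 20 tested, 1 rose, Mup2, and the list's median log2 change was 0.41, 0.28 and 0.38 in the replicate numbers. The call of Mup2 was lost without replicate 1 (log2 change of 0.49), replicate 2, 1:30 or 16:30, and without the 4 libraries of low correlation (0.51, adjusted p of 0.14 by limma). The family's summed level had a median of 147180 TPM in normoxia and 169043 TPM after IH, with ranges that overlapped. With the change by transcript length and GC content removed, the list's median was 0.08. Of 22 genes known to be higher in male liver, 4 fell (Cyp4a12a, Cyp4a12b, Egfr and Ces2e) and 1 rose (Sult2a8). Of 5 female-biased genes tested, 1 rose, Cyp17a1, a steroid hydroxylase at 2.87 ± 2.87 TPM in normoxia and 9.50 ± 15.1 TPM after IH (SD, n = 24 and 23). It passed the filter of 5 TPM only through its level after IH, and its call was lost without replicate 2 (adjusted p of 0.13 by limma) and without replicate 3 (0.058). Pericentral and periportal genes, expressed around the central and the portal vein, had 1 fall of 16 and 3 falls of 20. Over all genes tested, the share of falls was 2.61% and that of rises 0.986%. Of 14 targets of hypoxia-inducible factors, 0 were called by limma and 6 had a p of at most 0.05 before adjustment. That p was also reached by 3164 of all 7198 genes tested. Of these 14, 10 were above 0 over all libraries, beside 3504 of all genes, and 12 in replicate 3, beside 4375. Without the 4 libraries of low correlation 1 target was called higher, beside 73 of all genes. With the change by length and GC content removed 1 was called higher, beside 54. Vegfa, the vascular growth factor, was given as a key gene and moved against most of the list. It was at 68.3 ± 23.5 TPM in normoxia and 57.9 ± 23.2 TPM after IH. Of 13 mitochondrially encoded RNAs, 0 were called by limma and 7 had a p of at most 0.05 before adjustment, beside 3164 of all genes. The median log2 change of these RNAs was 0.39, 0.13 and 0.29 in the replicate numbers. It was 0.03 over all libraries with the change by length and GC content removed. All 13 were above 0 in replicate 3, as were 4375 of the 7198 genes tested.

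Of the 10 largest rises, 9 had a far higher level in kidney or heart than in normoxic liver of replicates 1 and 2. Among them, the pseudogenes Gm13502 and Gm8325 were at 0 TPM in those replicates but at 7.13 and 7.29 TPM over all normoxia libraries. They were at 9.55 and 11.8 TPM after IH and at 25.4 and 52.3 TPM in normoxic kidney. Among the 71 genes that rose, 23, those 9 included, had at least 10 times the level of normoxic liver (replicates 1 and 2) in the kidney or heart of normoxic mice, or 32.4%. The same held for 161 of the 7198 genes tested (2.24%) and 3 of the 188 that fell. Genes low in normoxic liver could pass the filter through their level after IH, so this share is a description. Kap (kidney androgen-regulated protein) ran from 0.387 to 6.99 TPM in normoxia replicates 1 and 2 and from 68.4 to 112 TPM after IH, without overlap. In replicate 3 it ran from 0.642 to 103 TPM in normoxia and from 32.8 to 82.8 TPM after IH. Gpx3 (a secreted glutathione peroxidase made mainly in kidney) and Fxyd2 (a subunit of the sodium pump) rose with it, at log2 changes of 2.11 and 2.44. Of the 12 kidney tubule markers, 2 passed the filter on mean TPM, Kap and Fxyd2, and of the 12 heart markers 5 passed, Myl2 among them. Fxyd2, at 2.35 TPM in normoxia and 7.76 TPM after IH, passed only through its level after IH, so a count of calls among these markers says nothing beyond their levels. The sums of these markers in each group are given above, and how transcripts of other tissues came to be in these libraries was not tested.

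Long transcripts fell more than short ones in replicates 1 and 2. The longest annotated transcript was known for 7116 of the genes tested (98.9%), with a median of 2927 bases. It was 3980 bases among the genes that fell and 1509 bases among those that rose. In the fifth of genes with the longest transcripts (4601 bases or more) the median log2 change was -0.13 in replicate 1, -0.10 in replicate 2 and 0.07 in replicate 3. In the fifth with the shortest (up to 1633 bases) it was 0.15, 0.16 and -0.01. Fasn, Apob, Fn1, Lrp1 and C4b, among the falls named above, have long transcripts, and Gsta1 has one of 875 bases. With the change by length and GC content removed, a choice made after seeing the data, 198 genes were called, 154 of them among the 259, and 883, 730 and 1 were called in replicates 1, 2 and 3.

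**Figure D5:**
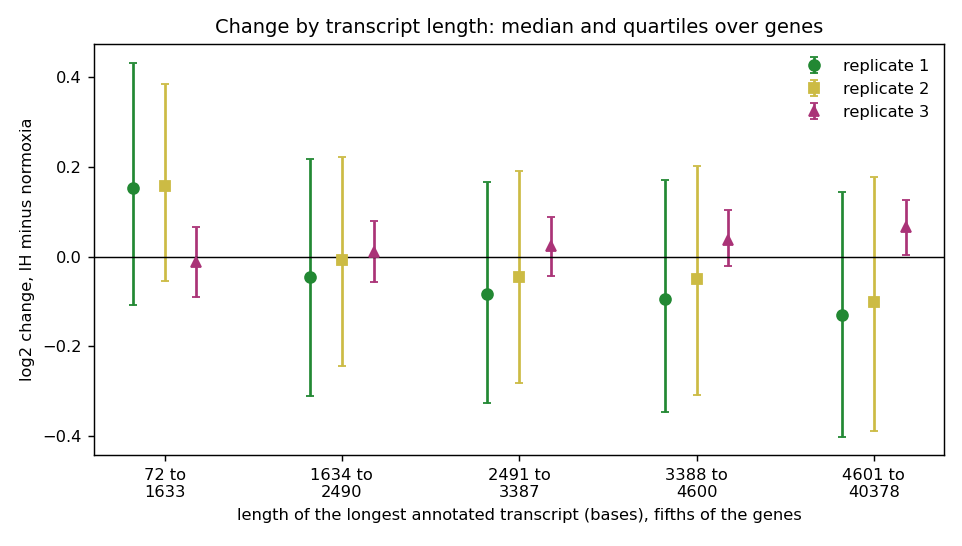
Log2 change (IH minus normoxia) in 5 bins of nearly equal numbers of genes in order of transcript length in bases, with the median (symbol) and the quartiles over genes (bars) for replicates 1, 2 and 3. The median fell with length in replicates 1 and 2 and rose slightly with length in replicate 3.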

How the data were processed

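RNA was measured in mouse liver after normoxia or IH. The authors prepared stranded poly(A) libraries, quantified paired-end reads with Kallisto on the Ensembl transcriptome, and summed transcripts to genes; the deposited values are TPM of 35904 genes, and each library used summed to between 994386 and 998620 TPM. The submitters' processing notes name mm10, bcl2fastq, FastQC 0.11.3, kallisto and DESeq2. With no counts used here, the depth of each library, and so its precision, is unknown, and no count test was run.

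Each library was divided by a size factor (median over genes of its ratio to the gene's geometric mean), and log2(TPM + 0.5) was compared with limma 3.58.1 (intensity trend, R 4.3.3), treatment alone, in genes whose mean reached 5 TPM. Fold changes are on that log2 scale, which understates the change of low genes. Calls needed a Benjamini-Hochberg adjusted p of 0.05 and 1.5-fold. The same fit was made within each replicate number, with 8 libraries per treatment and 7 for IH replicate 2. Interactions with replicate number and time point were F tests. Tables were made with Python 3.11.15, pandas 2.3.3 and NumPy 2.4.6 and figures with matplotlib 3.10.9. The code was tested on simulated data. Positions and lengths come from GENCODE M21 (GRCm38), and sequences from RefSeq. Motifs were searched on both strands of the 250 bases before each start.

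Named genes were the 10 largest rises and falls, up to 3 called members of each of 23 lists, key liver genes, the 5 rises and 5 falls with the largest smallest change over 3 replicate numbers, and the 3 smallest p-values of each interaction; others are said to be chosen after their values were seen. Some genes that the rule names are not reported here. The members and lists were chosen with earlier results of these data known. Each library came from 1 mouse as far as the methods state. The alternatives were other pseudocounts, filters, scalings, weights and thresholds, terms for time point and replicate number, the left-out library, and leaving out replicate numbers or time points. The terms for kidney tubule markers, for length and GC content, and the removal of 4 libraries were chosen after seeing the data.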

Additional observations from a re-analysis of the deposited data

Results flagged for a closer look

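The change after IH differed between replicate numbers in 1909 of 7198 genes by the interaction test, as the comparison of the 3 replicate numbers above describes.

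The library left out, IH replicate 2 at 13:30, had a heart muscle marker sum of 11498 TPM, against at most 106 TPM in the libraries used. Its hepatocyte marker sum was 1166 TPM, its kidney tubule sum 457 TPM and its erythroid sum 30008 TPM. Its log2 values had a correlation of 0.688 with the median library.

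Among 21 genes with values given above, in 126 groups of 7 or 8 libraries of 1 treatment and replicate number, 15 groups had 1 library far from the others. Chance gives about 1 in 20, and the libraries of a group come from 8 time points. In normoxia, Csad was at 350 TPM in replicate 2 at 1:30, and Nnmt at 205 TPM in replicate 1 at 16:30 and 306 TPM in replicate 3 at 10:30. Mt2 was at 362 TPM in normoxia replicate 3 at 7:30, where the nearest other library had 101 TPM. Fasn was at 617 TPM in normoxia replicate 2 at 13:30. After IH at 16:30 it was at 87.8 TPM in replicate 1 and 82.7 TPM in replicate 2. Pzp was at 1447 TPM in normoxia replicate 3 at 10:30. After IH, Clstn3 was at 11.1 TPM in replicate 2 at 16:30 and Cyp4a12a at 75.8 TPM in replicate 1 at 7:30. Sult1d1 was at 20.7 TPM in IH replicate 1 at 1:30 and at 213 TPM in IH replicate 2 at 19:30. In that last library C3 was at 658 TPM. IH replicate 3 at 1:30 had the lowest Alb of its group, 19930 TPM, and the highest Mup2, 386 TPM.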

How the results depend on the processing

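Of the 259 genes called over all libraries, the count was within 1.5 times under other pseudocounts, filters and scalings, a term for time point, no trend, and leaving out any 1 time point (233 to 288). It moved to 523 with weights per library, to 2409 at adjusted p alone, and to 9 with the kidney tubule sum as a term. Without 1 replicate number it was 46 to 1049, the first without replicate 1, 49 without replicate 2 and the last without replicate 3. On TPM as deposited, 336 genes were called and 11.9% were higher, against 27.4% after scaling, and the median of all genes shifted from -0.008 to -0.095 (from -0.035 to -0.16 in replicate 1). With the left-out library included, 325 were called. The share of called genes that were higher was 34.4% with a filter of 1 TPM and 36.1% with no filter. The authors, with DESeq2 on estimated counts, reported that most changed genes of the liver rose after IH. Why the direction differed here was not tested. Within replicate 3, 3 genes were called on deposited TPM and 3 with a time term, instead of 1. Same-numbered groups of both treatments deviated together with correlations of 0.682, 0.078 and 0.544, and 22 of 23 library pairs of the same time point and number correlated over 0.1 (-0.091 to 0.621). Deviations were taken from the mean of a treatment over all time points, so libraries of the same time point can correlate through the time of day. Pairs of the same time point and different number were not compared. These correlations therefore do not decide whether the numbers pair the libraries, and the numbers were not taken to pair them. The replicate block gave 282 genes, 270 with time point, and 204 with length and GC correction.

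Of 67 named genes that were called, 59 lost the call with the kidney tubule term, with SEs a median of 1.52 times as large, and 3 changed sign, Gm13502 (-0.47), Gm8325 (-0.28) and Ptges3-ps (-0.37). Without replicate 1 or 2, 38 and 40 lost it, against 1 without replicate 3. Genes not called that changed sign with the kidney term were Apoa1 (0.10), Cryl1 (0.052), G6pc (0.11), Glul (0.012), Igf1 (0.13) and Ttr (0.067). Saa1 turned to -0.022 with the left-out library, -0.029 on deposited TPM, -0.089 with weights and -0.35 without the 4 libraries. Lpl turned to 0.022 with the left-out library and Glul to 0.0098 without the 4 libraries. When 1 replicate number or time point was left out, Saa1 ranged from -0.28 to 0.35, Glul from -0.27 to 0.065 and Vegfa from -0.38 to 0.020. The cause of these shifts was not tested. With no counts, low genes cannot be weighed by depth.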
